A study of Mus musculus with 9 samples.

Results

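The genes described here encode the structural parts of the motile cilium: the cilia and flagella associated proteins (Cfap genes), the radial spokes (Rsph genes), the tektins (Tekt genes) and the nexin-dynein regulatory complex (Drc genes). They were chosen by symbol, as every row of the deposited table whose gene name starts with Cfap, Rsph, Tekt or Drc followed by a digit, together with Hydin, Spag6l, Spag16, Spag17 and Lrrc23. The rule gave 57 genes among the 56748 of the table. It used no measured value, but the family was picked with earlier results of these data known. Members of the nexin-dynein regulatory complex that carry other symbols, such as Ccdc65 and Gas8, fall outside the rule.

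RNA was sequenced from primary basal stem cells of the mouse trachea, the progenitors of the airway lining. All cells were wild type (WT), and they were collected after 1, 3 or 5 days at an air-liquid interface (ALI), a culture in which cells on a membrane are fed from below and have air above. Each day had 3 libraries, and by the labels the groups share the tissue, genotype, cell type and culture method. The labels give no age or sex, and it is not stated that the libraries of a day are separate cultures or separate mice. The p-values therefore cover the spread between these libraries only, and that spread may be technical.

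A motile cilium is built on an axoneme, a ring of doublet microtubules around a central pair. Radial spokes reach from the doublets to the central apparatus, the nexin-dynein regulatory complex ties neighbouring doublets together, and tektins and other microtubule inner proteins line the inside of the doublets. In the airway these proteins are made by multiciliated cells, where Gmnc, Mcidas, Foxj1 and the RFX factors are known to switch on the ciliary genes.

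Levels below are normalized counts, that is reads divided by 1 size factor per library, given either as the mean ± SD of a day's 3 libraries or as the values of replicates 1, 2 and 3 in that order. The libraries held 16.4 to 35.1 M reads, most on day 1 and fewest on day 5. Within a day, libraries correlated at 0.968 to 0.989 over genes. The 10 basal cell markers summed to at least 236459 normalized counts in every library, so RNA of these markers was present throughout. They did not move together. Krt15 had means of 62675, 302633 and 195601 on days 1, 3 and 5, against 108199, 82486 and 38923 for Krt5. In the fit described below, 4 of the 10 were higher and 5 lower on day 5 than on day 1, beside 36.7% and 37.7% of all tested genes. The 8 secretory cell markers summed to 2614 to 8138 on day 1, 271191 to 407489 on day 3 and 698575 to 952181 on day 5. Most of the day 3 sum was Cbr2, with means of 311058 on day 3 and 311624 on day 5. Lypd2 had 13359 and 15001 on these days, and Cyp2f2 had 23567 and 294613. Scgb1a1, Scgb3a1, Scgb3a2, Bpifa1 and Muc5b had means of 6.11 to 96.8 on day 3 and 685 to 125696 on day 5. In bulk RNA, fewer cells of a type and less RNA per cell cannot be told apart. Day 1 stood apart from the later days in sex-linked genes: 4 Y-linked genes summed to 3137 ± 113 there, against 324 ± 24.2 on day 3 and 461 ± 98.3 on day 5. Xist went from 1825 ± 246 to 5998 ± 507 and 7373 ± 1292. The part of the cell source in the comparisons with day 1 cannot be told apart from the day. The 6 fibroblast markers summed to 4.07 to 14.9 on day 1, 4.02 to 8.88 on day 3 and 103 to 130 on day 5, where Dcn held 112 ± 16.1, and Lum had no read on days 3 and 5. The 7 leukocyte markers summed to 9.96 to 11.5, then 448 to 676, then 63273 to 81454, nearly all of it Lyz2 on days 3 and 5, while Tyrobp had no read on any day and Ptprc had 0 reads on day 3 and 1 on day 5. The 5 endothelial markers summed to 12.9 to 19.1, 12.8 to 23.7 and 8.61 to 16.8. The 9 male germ cell markers, included because sperm share these genes, summed to 2.03 to 8.49, 5.92 to 6.69 and 10.9 to 16.8 on the 3 days. The part of these other cell types in the changes of the axonemal genes was not tested.

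Promoters of some of the axonemal genes that rose most are shown first, because RFX and forkhead factors are known to bind such promoters. Each is the RefSeq window on GRCm38.p6 from 250 bases before to 50 after an annotated start, 5′ to 3′ on the gene's strand. The first group holds Rsph9, Drc3 and Cfap126, among the largest rises from day 1 to day 3, and the second holds Lrrc23, Tekt1 and Tekt4, among the largest from day 3 to day 5. Cfap53 in the first step and Cfap65 in the second were also among the largest rises and are not shown. Capitals mark an X-box (GTNNCC, then any 2 bases, then GGNNAC) or an RFX half-site (GTTGCC), read on either strand. Where a gene had several windows, the first that held a motif is printed, a choice made after the first window of Cfap126 held none.
Rsph9, chr17:46144151-46144450, minus strand: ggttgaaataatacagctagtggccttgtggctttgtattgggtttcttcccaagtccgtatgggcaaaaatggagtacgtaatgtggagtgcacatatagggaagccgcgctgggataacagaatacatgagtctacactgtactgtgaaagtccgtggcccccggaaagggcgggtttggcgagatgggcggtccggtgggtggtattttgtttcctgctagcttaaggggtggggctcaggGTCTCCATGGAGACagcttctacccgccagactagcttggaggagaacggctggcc
Drc3, chr11:60353130-60353429, plus strand: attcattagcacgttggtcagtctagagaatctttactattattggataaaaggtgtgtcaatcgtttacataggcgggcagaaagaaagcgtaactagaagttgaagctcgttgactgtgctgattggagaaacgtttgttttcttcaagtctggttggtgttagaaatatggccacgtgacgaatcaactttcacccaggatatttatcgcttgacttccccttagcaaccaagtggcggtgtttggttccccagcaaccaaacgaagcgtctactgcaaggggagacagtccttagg
Cfap126, chr1:171122795-171123094, plus strand: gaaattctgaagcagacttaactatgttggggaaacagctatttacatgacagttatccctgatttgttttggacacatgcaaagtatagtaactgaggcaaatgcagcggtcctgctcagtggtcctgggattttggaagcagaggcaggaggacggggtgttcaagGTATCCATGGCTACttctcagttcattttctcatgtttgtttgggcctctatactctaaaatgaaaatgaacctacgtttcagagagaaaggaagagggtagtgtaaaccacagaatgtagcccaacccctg
Lrrc23, chr6:124779678-124779977, minus strand: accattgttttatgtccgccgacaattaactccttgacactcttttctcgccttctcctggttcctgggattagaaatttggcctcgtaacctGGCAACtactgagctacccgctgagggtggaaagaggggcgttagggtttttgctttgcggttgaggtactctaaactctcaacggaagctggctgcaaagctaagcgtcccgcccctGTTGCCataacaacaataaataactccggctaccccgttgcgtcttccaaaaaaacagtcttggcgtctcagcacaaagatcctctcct
Tekt1, chr11:72361833-72362132, minus strand: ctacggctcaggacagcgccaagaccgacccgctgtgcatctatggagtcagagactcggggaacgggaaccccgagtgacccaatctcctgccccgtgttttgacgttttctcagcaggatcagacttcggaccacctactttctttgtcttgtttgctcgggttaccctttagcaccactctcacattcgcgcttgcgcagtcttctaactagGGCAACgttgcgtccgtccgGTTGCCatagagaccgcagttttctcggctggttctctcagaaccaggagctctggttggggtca
Tekt4, chr17:25471340-25471639, plus strand: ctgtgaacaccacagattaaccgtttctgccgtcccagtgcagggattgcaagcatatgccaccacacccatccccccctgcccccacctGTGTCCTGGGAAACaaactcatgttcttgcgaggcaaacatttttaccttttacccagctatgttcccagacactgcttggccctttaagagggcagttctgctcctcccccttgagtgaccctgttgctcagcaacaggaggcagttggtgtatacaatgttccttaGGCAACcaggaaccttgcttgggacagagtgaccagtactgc

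The X-box of Rsph9 began 6 bases before the start and that of Cfap126 82 bases before it. Lrrc23 and Tekt1 each held 2 half-sites and no X-box, and Tekt4 held an X-box and a half-site. Neither motif nor the forkhead site (TGTTTAC) was in the Drc3 window. Of the 57 genes, 47 had a promoter window in the table, and 5 of those had more than 1. An X-box was in 14.8% of the 54 windows of these genes, against 1.88% of all 32851 windows and 2.46% of the 14085 windows of tested genes. The 8 genes with an X-box were Cfap126, Cfap206, Cfap20dc, Cfap298, Cfap77, Rsph9, Spag6l and Tekt4, which include genes that rose early, genes that rose late and Cfap298, which was not called in any comparison. The half-site was in 42.6% of the windows, against 12.5% of all windows and 13.1% of those of tested genes, and 3 of the windows with an X-box carry a half-site inside it. The forkhead site was in 5.56% of the windows (Cfap20, Cfap43 and Tekt3), against 3.65% of all windows and 2.67% of those of tested genes. The motifs and the comparison windows were chosen with the expression values at hand, and a match of letters is not a bound site.

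Nearly all of the family was present on day 5, and the members differed mainly in how much RNA was there before. On day 5, 55 of the 57 genes had reads in all 3 libraries. The exceptions were Rsph6a, the spoke head subunit known from testis, which had 10 reads on day 1 and none later, and Cfap97d1, which had 1 read on day 1 and 1 on day 5. Counted as detected were genes with 10 or more normalized counts in at least 3 libraries, and 54 of the 57 were. The third undetected gene was Spag17, a central apparatus subunit, whose day 5 values were 57.5, 27.1 and 7.38, so that 1 library fell short of the minimum.

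By day 3, 50 of the 57 genes had at least 1 read on day 1 or day 3. The 7 with none were Cfap161, Cfap57, Cfap58, Cfap97d2, Rsph14, Spag16 and Spag17, and at this depth a count of 0 allows a mean of up to 0.693 normalized counts on day 1 and 1.17 on day 3 (3 reads over a day's libraries; such limits cover counting error only). On day 1, 49 genes had a read and on day 3, 43. Far fewer had reads throughout: 30 genes had reads in every day 3 library, and 35 had 3 or more reads summed over day 3. The 7 genes with reads on day 1 and none on day 3 had few to begin with (Cfap221, Cfap65, Cfap97d1, Hydin, Rsph6a, Tekt1 and Tekt3, with 1 to 10 reads). Tekt4 was the only gene with reads on day 3 and none on day 1.

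The level on day 3 as a share of that on day 5 spread the 54 detected genes over the whole scale. For 21 genes day 3 held under 1% of the day 5 mean, and 11 of these had no day 3 read. For 13 genes the share was 1 to 10%, for 10 genes 10 to 50%, and for the last 10 it was 50% or more. Those last 10 were Cfap20, Cfap20dc, Cfap298, Cfap410, Cfap43, Cfap97, Rsph3a, Rsph3b, Tekt2 and Tekt5. Of the 11 detected central apparatus genes, Cfap69 (8.97%), Cfap47 (4.34%) and Cfap54 (2.11%) were the ones above 1%. The heat map of all 57 genes by role shows this spread.

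**Figure D1:**
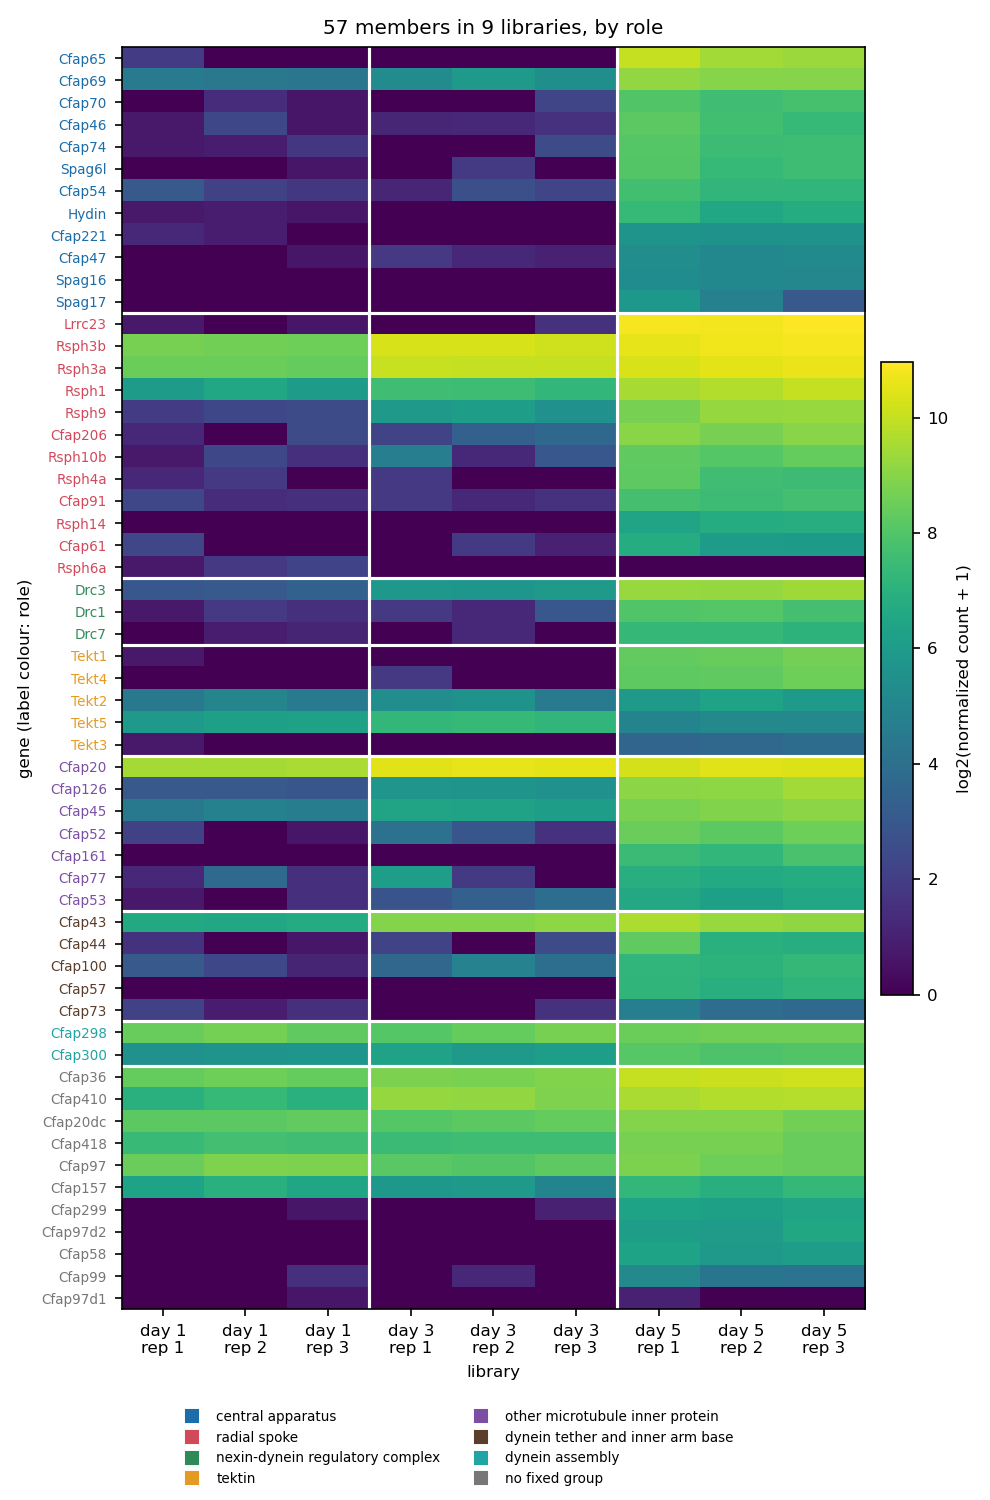
Heat map of log2(normalized count + 1) for the 57 genes (rows, label colour for the role) in the 9 libraries (columns, by day and replicate). Dark cells are 0; 55 rows are above 0 in all 3 day 5 libraries, while 30 rows are above 0 in all 3 day 3 libraries.

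The change between days was tested with limma on log2(normalized count + 1) over all 17338 genes with 10 or more normalized counts in at least 3 libraries, and called at a Benjamini-Hochberg adjusted p under 0.05. From day 1 to day 3, 19 of the 54 detected genes rose (35.2%) and 2 fell (3.70%), beside 36.1% and 37% of all tested genes. Among the 33 genes that met the minimum through day 5 alone, 4 rose, none fell and 29 were not called in that step. Among the 21 others, 15 rose (71.4%) and 2 fell (9.52%). Some of those 21 met the minimum on day 3 and not on day 1, which favours a rise. From day 3 to day 5, 51 rose (94.4%) and 1 fell, beside 34.8% and 32.4%. From day 1 to day 5, 50 rose (92.6%) and 1 fell, beside 36.7% and 37.7%. These counts, and the medians over the 54 genes, include 33 genes that met the minimum through day 5 alone and so had to be higher there. For the 21 others, which were at 10 or more in all libraries of day 1 or day 3, the filter did not set the direction of the later step. Among these 21, 18 (85.7%) rose from day 3 to day 5, Tekt5 fell, and Cfap20 and Cfap298 were not called.

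Of the 17 genes already at the minimum on day 1, 11 (64.7%) rose to day 3, Cfap157 and Cfap97 fell (11.8%), and 4 were not called. The shares of all tested genes were 36.1% and 37%, but those genes were not held to the day 1 minimum. From day 1 to day 5, 13 of the same 17 rose (76.5%) and 1 fell (5.88%), beside 36.7% and 37.7% of all tested genes, with the same limit. The median log2 change over the 54 genes was 0.14 from day 1 to day 3, 4.66 from day 3 to day 5 and 5.60 from day 1 to day 5, while over all tested genes it was 0.00, 0.06 and -0.06. With genes that had no read on a day set at the bound that 3 reads give, the members' medians were 0.14, 4.53 and 5.69. For the 17 genes at the minimum on day 1, the medians were 1.01, 0.63 and 1.66. Added over all 57 genes, the normalized counts were 3744 ± 188 on day 1, 7204 ± 75.6 on day 3 and 20643 ± 651 on day 5. The 3 ranges did not overlap.

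Radial spokes included both genes present from the start and the gene with the highest day 5 mean. From day 3 to day 5 all 11 detected spoke genes rose, beside 34.8% of all tested genes. Of these 11, 7 met the minimum through day 5 alone and had to be higher there. In the step before it 5 of the 11 rose (45.5%) and none fell, beside 36.1% and 37% of all tested genes. Rsph9, a subunit of the spoke head, had 2.71, 4.15 and 4.85 on day 1, 60.0, 71.0 and 46.4 on day 3 and 420.1, 602 and 619 on day 5. Every library of a later day was above every library of the day before, and its day 1 to day 3 change of 3.62 ± 0.27 on the log2 scale (± SE, adjusted p = 1.7e-06) was the largest rise among the 54 genes in that step. Between days 3 and 5 Rsph9 rose by a further 3.19 ± 0.27 (adjusted p = 4.9e-06). Rsph1, another head subunit, had 65.8, 92.2 and 63.7, then 194, 186 and 154, then 750.1, 843 and 1019, with log2 changes of 1.27 ± 0.19 (adjusted p = 1.1e-04) and 2.28 ± 0.19 (adjusted p = 3.4e-06). Rsph4a, the head subunit that partners them in airway cilia, had few reads until after day 3.

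The values of Rsph4a were 1.36, 2.49 and 0 on day 1, 2.5, 0 and 0 on day 3 and 304, 191 and 182 on day 5. Its reads numbered 5, 2 and 603, and the rise from day 3 to day 5 was 297-fold (95% counting interval 82.0 to 2461), with an adjusted p of 3.9e-06. The 3 head subunits had RNA on day 3 at 20.4% (Rsph1), 10.8% (Rsph9) and 0.369% (Rsph4a) of their day 5 means. Differences between genes were not tested here or below.

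Lrrc23, a protein of the head of the spoke known as RS3, went from 2 reads on day 3 to the highest mean of the family on day 5. Its day 5 libraries overlapped those of Rsph3b, which had 1504, 1705 and 1819. Lrrc23 had 0.678, 0 and 0.606 on day 1, 0, 0 and 1.97 on day 3 and 1802, 1731 and 2004 on day 5. That is 2 reads over the day 3 libraries and 4788 over those of day 5, a 2361-fold rise (95% counting interval 653 to 19503). On the log2 scale of the fit the change was 10.32 ± 0.44 (adjusted p = 1.0e-07), which depends on the pseudocount.

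Rsph3a and Rsph3b, copies of the gene for the spoke stalk protein that anchors the complex, behaved otherwise. Rsph3b had 421, 400.2 and 375 on day 1, 1274, 1265 and 1153 on day 3 and 1504, 1705 and 1819 on day 5, with log2 changes of 1.62 ± 0.0999 (adjusted p = 6.5e-07) and 0.44 ± 0.0999 (adjusted p = 0.00283). Rsph3a had 365, 363 and 329, then 1045, 1019 and 1011, then 1278, 1482 and 1604. For both copies the early step was the larger, and the difference between steps was called (adjusted p = 1.6e-04 and 4.3e-04). The copies share 59.4% and 58.5% of their 31-base words, so reads may have been split between them and their separate levels are uncertain.

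Cfap206, a protein at the base of a spoke, had the largest fitted log2 change of the remaining spoke genes from day 1 to day 5. That order depends on the pseudocount, because Rsph14 had no read on day 1 and its rise is known only as at least 145-fold. Cfap206 had 1.36, 0 and 4.85, then 3.75, 9.37 and 11.8, then 521, 421 and 513. Its day 1 and day 3 libraries overlapped although that step was called (1.84 ± 0.59, adjusted p = 0.0154). Without day 1 replicate 2 or day 3 replicate 3 it was not (adjusted p = 0.056 in each case), nor in a fit of these 2 days alone (adjusted p = 0.053). Rsph10b had 0.678, 4.15 and 1.82 on day 1, 25, 1.34 and 6.91 on day 3 and 313, 271 and 335 on day 5, so its day 3 mean rested on replicate 1. It was singled out after its values were seen, and its first step was 1.43 ± 0.73 with that library and 0.57 ± 0.58 without it (adjusted p = 0.0999 and 0.41). Its annotated exons also overlap those of same-strand neighbours over 13.2% of their length. Rsph14, Cfap61 and Cfap91 had at most 4.07 normalized counts in any library of days 1 and 3 and day 5 means of 102 ± 16.3, 79.0 ± 27.7 and 202 ± 16.3.

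The central apparatus genes had few or no reads before day 5, apart from Cfap69. All 11 detected genes of this group were called higher on day 5 than on day 3, but 10 of them met the minimum through day 5 alone and had to be higher there, so the count says nothing of the group and the levels are given instead. Hydin, which encodes a very large protein of a central pair projection whose loss leaves airway cilia with abnormal beating, had 0.678, 0.830 and 0.606 on day 1, 0, 0 and 0 on day 3 and 163, 90.4 and 108 on day 5. It had 3 reads on day 1, none on day 3 and 322 on day 5, which makes day 5 at least 106-fold higher than day 3 (adjusted p = 1.8e-07). Day 5 replicate 1 was the highest of the 3.

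Cfap65 had 4 reads on day 1, all in 1 library, none on day 3, and 1017, 707 and 634 on day 5, at least 687-fold above day 3 (adjusted p = 2.1e-07). It was the highest of the central apparatus genes on day 5, both in normalized counts and per kilobase. Spag6l, the mouse counterpart of a central pair protein needed for beating in Chlamydomonas, had 0, 0 and 0.606, then 0, 2.68 and 0, then 259.6, 160.1 and 189.5. Its reads rose from 2 to 540 between days 3 and 5, 266-fold (95% counting interval 73.4 to 2205, adjusted p = 2.0e-06). Spag16 had no read on days 1 and 3 and 39.6, 33.6 and 33.2 on day 5, at least 30.6-fold above day 3 (adjusted p = 8.1e-07).

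Spag17 also had no read before day 5, where it was at least 27.9-fold higher than on day 3, but it missed the detection minimum and was not tested. Its day 5 libraries ranged from 7.38 to 57.5, the widest relative spread among the 55 genes with reads in all 3. The last 500 exonic bases of Spag17, over all its annotated transcripts, lie opposite exons of other genes. Cfap69 was the single central apparatus gene above the minimum earlier. It rose from 20.1 ± 1.46 to 47.5 ± 11.3 and then 529 ± 46.6, by 1.17 ± 0.21 (adjusted p = 4.6e-04) and 3.47 ± 0.21 on the log2 scale (adjusted p = 4.8e-07). Cfap47 was also called higher on day 3 (1.11 ± 0.38, adjusted p = 0.0217), on 1 read against 4 (ratio 6.76, 95% counting interval 0.669 to 333). That call was lost with a pseudocount of 8, with no filter and without day 1 replicate 1 or 2 or day 3 replicate 1 (adjusted p 0.064 to 0.22). Cfap46, Cfap47, Cfap54, Cfap70, Cfap74 and Cfap221 stood at 0 to 7.46 in the libraries of days 1 and 3, and their day 5 means ran from 37.0 ± 3.53 (Cfap47) to 223 ± 29.0 (Cfap70).

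In the nexin-dynein regulatory complex, Drc3 was called higher by day 3, and Drc1 and Drc7 were called between days 3 and 5 and not before. Drc3, a subunit of the linker between doublets, had 6.78, 7.47 and 9.70 on day 1, 56.2, 53.6 and 60.2 on day 3 and 616, 603 and 667 on day 5. No library of one day overlapped those of another, and the steps were 2.69 ± 0.20 (adjusted p = 1.5e-06) and 3.45 ± 0.20 (adjusted p = 3.7e-07) on the log2 scale. Drc1, the scaffold subunit, had 0.678, 2.49 and 1.82, then 2.5, 1.34 and 6.91, then 249.7, 266 and 212, so that days 1 and 3 overlapped and were not called apart (adjusted p = 0.222). Drc7 had 3 reads on day 1, 1 on day 3 and 386 on day 5, where its values were 156, 155 and 134. Both rose from day 3 to day 5 (adjusted p = 2.7e-06 for Drc1 and 8.6e-07 for Drc7). However, Drc1 and Drc7 met the minimum through day 5 alone, so the filter set the direction of that step. The lack of an earlier call rests on few reads, 7 and 10 for Drc1 and 3 and 1 for Drc7 on days 1 and 3.

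The tektins, which form filaments inside the doublet wall, did not move as 1 group. Tekt1 and Tekt4 appeared after day 3. Tekt1 had 1 read on day 1, none on day 3 and 317, 339 and 406 normalized counts on day 5, at least 300.2-fold above day 3 (adjusted p = 7.1e-08). Tekt4 had 2.5, 0 and 0 on day 3 after none on day 1, and 299, 311 and 369 on day 5, with 2 reads against 843 (ratio 416, 95% counting interval 115 to 3438, adjusted p = 5.4e-07). Tekt3 followed at a low level, with 10.9, 11.6 and 13.5 on day 5 and 1 read before.

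Tekt2 was present throughout, with 20.3, 30.7 and 21.8 on day 1, 40.0, 48.2 and 22.7 on day 3 and 58.5, 81.3 and 59.1 on day 5. Its day 1 and day 3 libraries overlapped (adjusted p = 0.148), and the later step of 0.87 ± 0.32 was called at an adjusted p of 0.0323. That call was lost under quantile normalization (adjusted p = 0.32), with no filter (0.05, at the threshold) and without day 3 replicate 3 or day 5 replicate 2 (adjusted p = 0.11 and 0.12), and without day 3 replicate 3 the first step was called (0.85, adjusted p = 0.025). In addition, 20.8% of the exonic length of Tekt2 lies opposite another gene. Tekt5, best known from sperm flagella, was the one member that fell after day 3. It had 60.4, 72.2 and 77.0 on day 1, 152, 163 and 149 on day 3 and 29.7, 34.9 and 34.5 on day 5. The rise of 1.14 ± 0.19 (adjusted p = 2.8e-04) was followed by a fall, a log2 change of -2.20 ± 0.19 (adjusted p = 5.3e-06), and day 5 also lay below day 1 (-1.06 ± 0.19, adjusted p = 4.8e-04). The rise to day 3 was lost when a trend on transcript length and GC content was removed (adjusted p = 0.06), while the fall was still called.

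The other microtubule inner proteins ranged from a gene already high on day 1 to genes without a read before day 5. Cfap20, found at the junction of the A and B tubules of the doublet, had 711, 709 and 751 on day 1, 1414, 1498 and 1468 on day 3 and 1242, 1363 and 1330.4 on day 5. It rose by 1.01 ± 0.0813 in the first step (adjusted p = 2.4e-06) and was not called in the second (-0.16 ± 0.0813, adjusted p = 0.113), although all day 5 libraries lay below all day 3 libraries. The sign of that second change turned under quantile normalization (0.02) and scaling to total reads (0.18), while with length and GC trends removed it was called lower (-0.64, adjusted p = 1.5e-04, and 5.1e-04 with the replicate block). Cfap126, also called Flattop, was among the early risers with 7.46, 7.47 and 6.67, then 51.2, 49.5 and 46.4, then 540.0, 551 and 688. Its steps of 2.61 ± 0.20 (adjusted p = 1.7e-06) and 3.56 ± 0.20 (adjusted p = 2.9e-07) had no overlap between days.

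Cfap53, a microtubule inner protein also needed for left-right patterning, rose from 0.678, 0 and 1.82 to 6.25, 9.37 and 14.8 and then 98.1, 73.6 and 91.1 (2.66 ± 0.44, adjusted p = 2.7e-04, and 3.05 ± 0.44, adjusted p = 1.6e-04). Cfap52 had 3.39, 0 and 0.606 on day 1, 16.2, 6.69 and 1.97 on day 3 and 354, 292 and 372 on day 5, and days 1 and 3 overlapped. Its first step was called in the fit over all days (adjusted p = 0.0206) and not in a fit of these 2 days alone (adjusted p = 0.064), nor without day 1 replicate 2 or 3 or day 3 replicate 1 or 2 (adjusted p 0.051 to 0.086). Cfap161 had no read on day 1 or day 3 and 179, 154 and 228 on day 5, at least 159-fold above day 3 (adjusted p = 1.0e-07). Cfap45 rose in both steps, from 23.6 ± 3.56 to 77.3 ± 7.46 and 483 ± 49.8.

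Cfap77, singled out after its values were seen, had 1.36, 12.5 and 1.82 on day 1, 67.4, 2.68 and 0 on day 3 and 121, 102 and 109.5 on day 5. Replicate 1 held nearly all of its day 3 reads. Its first step was 0.50 ± 1.25 with that library (adjusted p = 0.737) and -1.22 ± 0.77 without it (adjusted p = 0.19), neither of which was called.

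Among the genes at the base of the inner dynein arms, Cfap43 had most of its day 5 level on day 3. Cfap43, part of the tether of a dynein head, had 99.7, 94.7 and 106 on day 1, 482, 487 and 549 on day 3 and 792, 616 and 569 on day 5. Its first step of 2.32 ± 0.14 (adjusted p = 6.4e-07) exceeded the second of 0.37 ± 0.14 (adjusted p = 0.0407), and the difference between steps was called (adjusted p = 6.6e-05). The second step turned to -0.16 once length and GC trends were removed, and its call was lost without day 1 replicate 1 or 3, day 3 replicate 1 or 2, or day 5 replicate 1 or 2 (adjusted p 0.051 to 0.13). It was also lost with the replicate block (adjusted p = 0.069), with no filter (0.06) and in a fit of these 2 days alone (0.053). Cfap44, its partner in the same tether, had 2.03, 0 and 0.606, then 3.75, 0 and 4.93, then 310.2, 124 and 114. Days 1 and 3 of Cfap44 overlapped (adjusted p = 0.3), the later step was 5.76 ± 0.70 (adjusted p = 5.4e-05), and on day 5 replicate 1 was far above the other libraries.

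Cfap57, Cfap73 and Cfap100 also rose from day 3 to day 5. Cfap57 had no read before and 135 ± 17.4 on day 5, Cfap73 went from 2 reads to 17.1 ± 6.72, and Cfap100 went from 18.1 ± 8.89 to 146 ± 11.7.

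The pair of genes for dynein assembly factors differed from each other. Cfap298, a factor needed to assemble dynein arms, had 341, 411 and 309 on day 1, 267, 328 and 420.4 on day 3 and 367, 379 and 386 on day 5. All days overlapped. In the F test across days, 53 of the 54 detected genes differed, beside 91.4% of all tested genes. That count includes 33 genes that met the minimum through day 5 alone, for which the filter favours a difference. Cfap298 was the one gene that this F test did not call (adjusted p = 0.588). Its steps were -0.08 ± 0.17 and 0.18 ± 0.17 on the log2 scale. The first was called lower with length and GC trends removed (-0.70, adjusted p = 0.0066, and 0.013 with the replicate block), and the second was called higher under scaling to total reads (0.51, adjusted p = 0.033). Genes annotated on the other strand cover 53.6% of its exonic length and all of the last 500 bases, and whether strand was used in counting is not given, so its level is uncertain. Cfap300 had 45.4, 50.6 and 54, then 78.7, 58.9 and 68.1, then 277, 239 and 252, with a first step of 0.44 ± 0.18 at an adjusted p of 0.0478 and a second of 1.89 ± 0.18 (adjusted p = 1.0e-05). The first call was lost under 6 alternatives, with an adjusted p of 0.42 under scaling to total reads and 0.079 with the replicate block, and on leaving out any 1 library other than day 3 replicate 2 (adjusted p 0.054 to 0.16).

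The genes with no fixed place in these groups include proteins of the basal body and of other cilia, and 6 of the 10 detected were at the minimum on day 1. Cfap36, known to bind the small GTPase Arl3, had 328, 378 and 329.9, then 446, 439 and 471, then 1016, 1092 and 1162 (0.39 ± 0.10, adjusted p = 0.00543, and 1.27 ± 0.10, adjusted p = 3.3e-06). The first of these calls was lost under scaling to total reads (0.12, adjusted p = 0.31). Cfap410, a basal body protein linked to retinal disease, had 125, 160.2 and 122, then 596, 588 and 457, then 759, 842 and 869. It made most of its rise early, by 2.0 ± 0.15 (adjusted p = 1.6e-06) against 0.60 ± 0.15 (adjusted p = 0.00481), and the difference between steps was called (adjusted p = 6.6e-04). The later call was lost with length and GC trends removed (0.23, adjusted p = 0.24).

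Cfap157 and Cfap97 were the genes called lower on day 3. Cfap157, a basal body protein needed in sperm, had 82.0, 122 and 87.9 on day 1, 56.2, 60.2 and 29.6 on day 3 and 154, 115 and 156 on day 5. Its day 3 libraries lay below those of both other days (-1.03 ± 0.29, adjusted p = 0.00836, then 1.57 ± 0.29, adjusted p = 8.5e-04). Cfap97 had 354, 454 and 451, then 289.8, 259.7 and 304, then 449.9, 369 and 343 (-0.55 ± 0.15, adjusted p = 0.00586, and 0.44 ± 0.15, adjusted p = 0.0223). Once length and GC trends were removed, its changes were 0.19 and -0.08 and were not called, and the second call was also lost without day 3 replicate 2 or day 5 replicate 1 (adjusted p = 0.082 and 0.072). Cfap20dc and Cfap418 were not called in the first step (-0.05 ± 0.13 and -0.03 ± 0.14, adjusted p = 0.757 and 0.859) and rose in the second by 0.63 ± 0.13 and 1.08 ± 0.14. For Cfap20dc that call was lost with length and GC trends removed (0.24, adjusted p = 0.075). Cfap58, Cfap97d2, Cfap99 and Cfap299 had at most 1.82 normalized counts in any library before day 5 and means of 23.3 to 79.6 on day 5, and the exons of Cfap299 overlap a same-strand gene over 19.1% of their length.

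**Figure D2:**
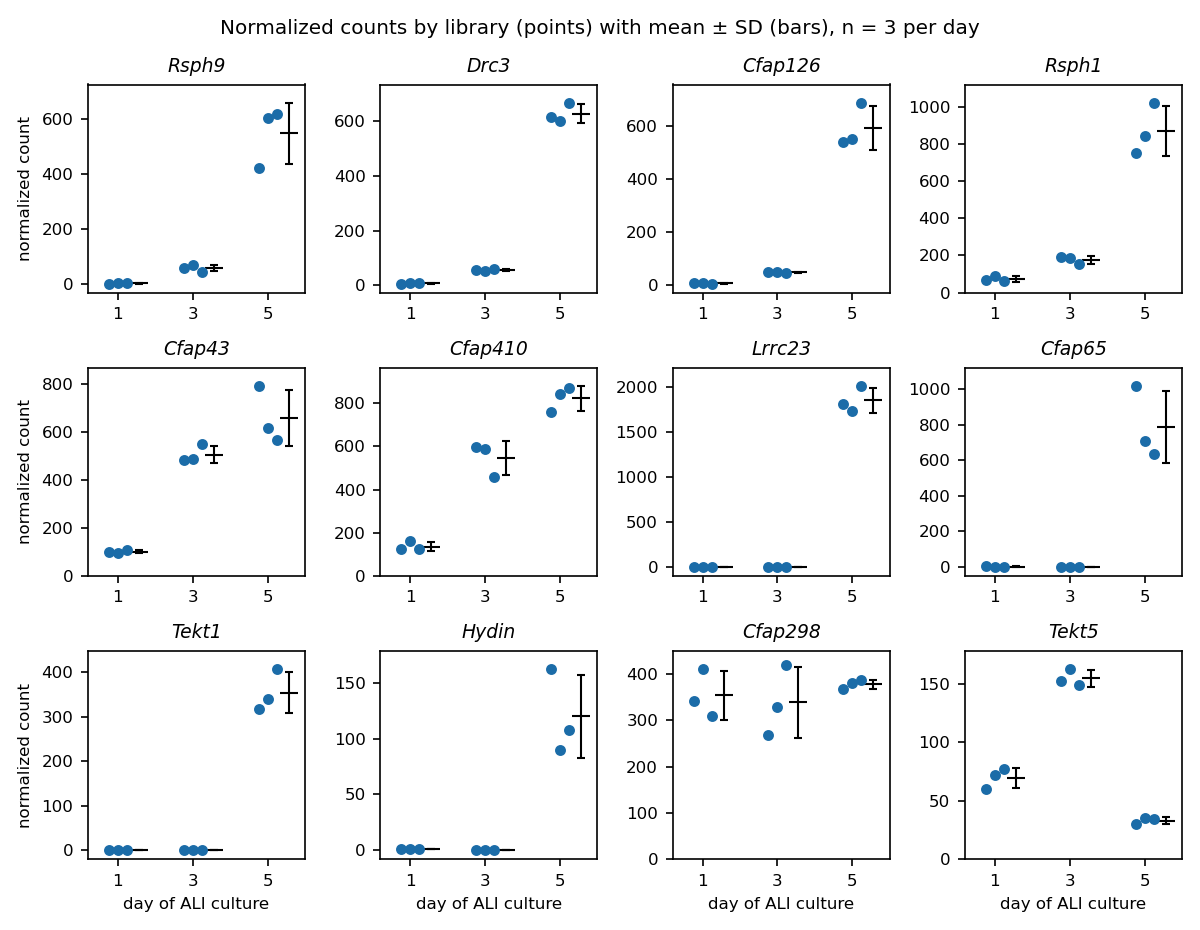
Normalized counts (y axis) of 12 genes by day of air-liquid interface (ALI) culture (x axis); points are libraries, bars the mean ± SD of 3. Rsph9, Drc3, Cfap126, Rsph1, Cfap43 and Cfap410 had risen by day 3, Lrrc23, Cfap65, Tekt1 and Hydin stood near 0 until day 5, Cfap298 overlapped on all days, and Tekt5 was lowest on day 5.

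The steps were compared within each gene by testing the day 3 to day 5 change against the day 1 to day 3 change. They differed for 47 of the 54 genes, beside 70.7% of all tested genes. For 41 genes the later step was the more positive, beside 36.8%, and for 6 the more negative, beside 33.9%. The first count includes 31 of the 33 genes that met the minimum through day 5 alone, for which the filter favours a larger later step. Of the 21 others the later step was the more positive for 10 and the more negative for 6, and 5 were not called. Those 6 were Cfap20, Cfap410, Cfap43, Rsph3a, Rsph3b and Tekt5, all of them at the minimum on day 1. The 7 genes without a call were Cfap100, Cfap298, Cfap53, Cfap77, Drc3, Rsph9 and Tekt2. Both steps of Rsph9 were large, 3.62 ± 0.27 and 3.19 ± 0.27, and the difference between them was -0.43 ± 0.47 (adjusted p = 0.428). The plot of both steps sets these genes apart from those whose change came after day 3.

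**Figure D3:**
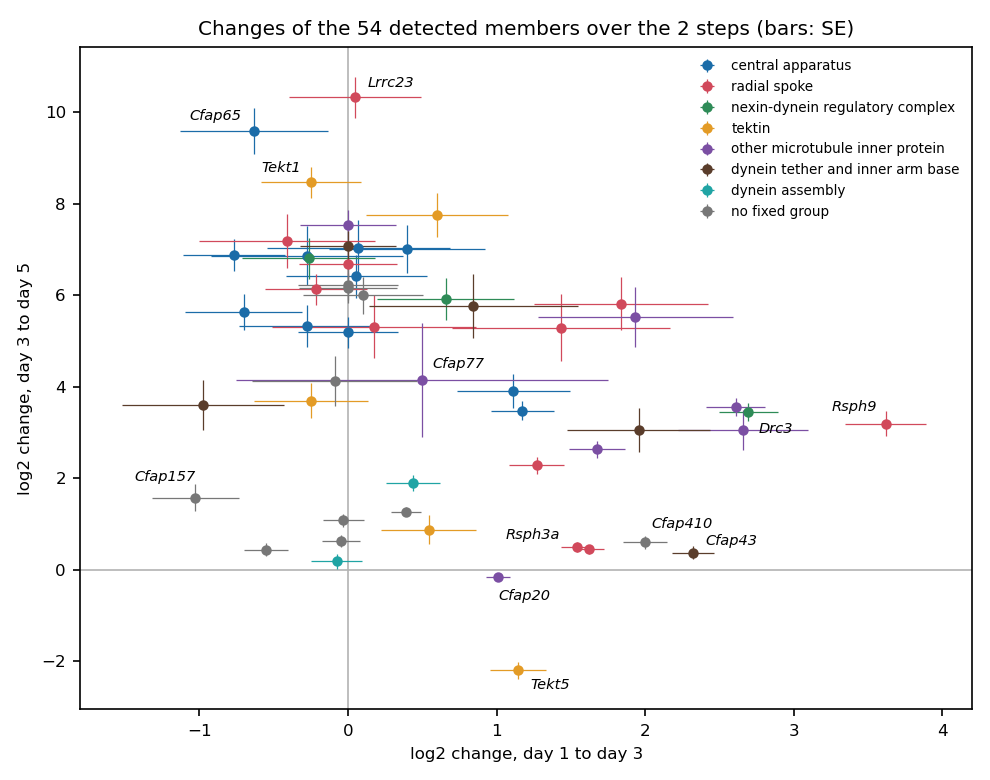
Log2 change from day 1 to day 3 (x axis) against log2 change from day 3 to day 5 (y axis) for the 54 detected genes, coloured by role, with SE bars from the fit. Both axes use the day 3 libraries. Many points lie near 0 on x and above 3 on y, Rsph9 is farthest right at 3.62, and Tekt5 is the lowest at -2.20.

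Regulators of the multiciliated program were read beside these genes. Foxj1 went from 2.01 ± 1.29 normalized counts to 41.9 ± 9.31 and then 2594 ± 262, and rose in both steps (adjusted p = 2.2e-06 and 2.2e-07). Gmnc, the most upstream of them, had 1 read on day 1, none on day 3 and 196 ± 80.3 on day 5. Mcidas stood at 0.780 ± 0.835, 5.21 ± 1.39 and 303 ± 53.1. Reads of Foxj1 were present on day 3 beside those of Rsph9, Drc3 and Cfap126, while no read of Gmnc was found at this depth. Rfx2 was present on every day, with 301 ± 20.2, 213 ± 34.3 and 377 ± 51.6. It fell to day 3 (a log2 change of -0.51, adjusted p = 0.0119) and rose afterwards (0.82, adjusted p = 8.7e-04). Rfx3 stood at 165 ± 10.3, 136 ± 9.35 and 294 ± 86.4, was not called in the first step (-0.28, adjusted p = 0.236) and rose in the second (1.07, adjusted p = 0.00109). Of the 14 regulators, 4 rose (28.6%) and 2 fell (14.3%) to day 3, beside 36.1% and 37% of all tested genes. From day 3 to day 5, 12 rose (85.7%) and 1 fell, beside 34.8% and 32.4%. Of the 9 regulators at the minimum on day 1 or day 3, 3 rose and 2 fell to day 3, and 7 rose and 1 fell in the later step.

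Other gene lists of the same organelle were counted in the same fit. Of 33 tested genes for axonemal dyneins, their docking and their assembly, 8 rose (24.2%) and 4 fell (12.1%) to day 3, beside 36.1% and 37% of all tested genes. From day 3 to day 5, 31 rose (93.9%) and 1 fell, beside 34.8% and 32.4%. However, 21 of the 33 were short of the minimum before day 5. Of the 12 others, 5 rose and 3 fell to day 3, and 10 rose and 1 fell afterwards. Of 35 other axonemal genes, among them the regulatory complex subunits with other symbols, 13 rose (37.1%) and 3 fell (8.57%) to day 3, and 33 rose (94.3%) and none fell afterwards, beside the same shares of all genes. In that list 24 genes were short of the minimum before day 5. Of the 11 others, 8 rose and 2 fell to day 3, and 9 rose and none fell afterwards. The 27 genes of intraflagellar transport, the carrier system that builds all cilia, were all at the minimum before day 5. They had 16 higher (59.3%) and 5 lower (18.5%) on day 3, beside 36.1% and 37% of all genes, and 17 higher (63.0%) and 4 lower (14.8%) from day 3 to day 5, beside 34.8% and 32.4%. These lists were chosen with earlier results of the data known.

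Day 5 levels were also divided by the length of the longest annotated transcript. This sets genes beside each other only roughly, because which transcript was expressed is not known. Lrrc23 led with 1256 normalized counts per kilobase, then Rsph3b with 747, Rsph1 with 731, Cfap36 with 655, Rsph3a with 654, Cfap126 with 574 and Rsph9 with 566. Below Lrrc23 the day 5 libraries of each of these genes overlapped those of the next in the order, so the order among them is not settled, and the levels of the copies Rsph3a and Rsph3b are uncertain as said. On day 3 these copies stood highest, Rsph3b with 549 and Rsph3a with 461 per kilobase, and Lrrc23 stood at 0.448. At the low end on day 5 were Hydin with 7.63, Tekt3 with 6.88, Cfap47 with 3.93 and Spag17 with 3.90 per kilobase. Within the spoke head, Rsph1 and Rsph9 were 731 and 566 per kilobase on day 5 and Rsph4a was 61.9.

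The day 5 libraries differed from each other along transcript length, which touches the longest of these genes. Over 47 genes with a day 5 mean of 50 or more, the log2 ratio of replicate 1 to replicate 3 followed log2 transcript length with r = 0.651 and rho = 0.620, which describes genes of the same pair of libraries. Over 12842 tested genes it was 0.649 and 0.684. Among the 8 genes over 5000 bases, 7 were higher in replicate 1, with a median log2 ratio of 0.55, and among the 7 genes up to 1500 bases none was, with a median of -0.35. In the same length classes the medians of all tested genes were 0.42 and -0.60. Hydin (15783 bases) and Cfap44 (6583 bases) were highest in replicate 1, and Rsph9 (966 bases) was lowest there. Length also went with the first step over all genes, with a median log2 change from day 1 to day 3 of 0.94 up to 1500 bases and -0.76 above 5000 bases. The members' medians in those classes were 0.10 and -0.11. Genes with a day 3 mean under 10% of day 5 had a median length of 2875 bases (n = 34) and the others one of 2101 bases (n = 20). A fit that removed trends on length and GC content gave 19 of the members higher and 3 lower on day 3 than on day 1. From day 3 to day 5 it gave 47 higher and 2 lower. Over all 17046 genes of that fit, 6251 were higher and 5924 lower in the first step, and 4337 and 7376 in the second. The members' counts still include the genes that met the minimum through day 5 alone.

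**Figure D4:**
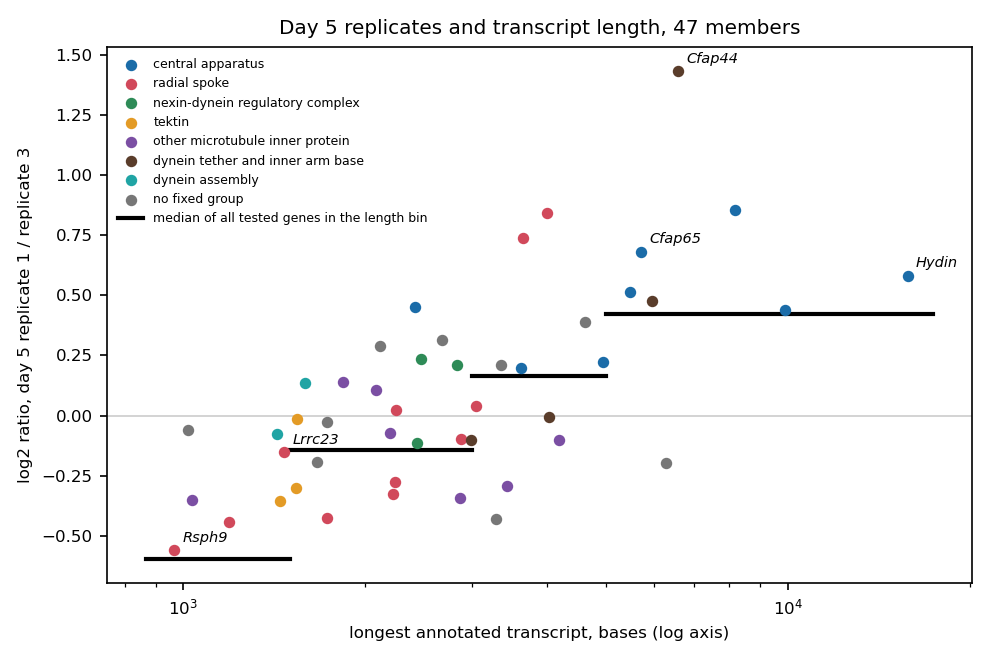
Log2 ratio of day 5 replicate 1 to replicate 3 (y axis) against the length of the longest annotated transcript in bases (x axis, log scale) for 47 genes with a day 5 mean of 50 or more, coloured by role. Black lines are the medians of all tested genes per length class, from -0.60 to 0.42; the genes rise along them from Rsph9 at the left to Cfap44 and Hydin at the right.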

How the data were processed

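The submitters' processing notes name HISAT2 2.1.0 as aligner, GRCm39 as build and DESeq2 1.36.0 for normalization. In the sources used here, the counter, the annotation and the use of strand are not given. The deposited table holds log2 values per gene and library: each is a read count over the library's size factor, and no pseudocount was added. Its 297330 cells without a number (error text) were read as 0, and 359 repeated lines were dropped. All values were whole multiples of 1 read within 0.01 read, so reads could be read back.

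Genes with 10 or more normalized counts in at least 3 of 9 libraries were tested, 17338 in all. limma 3.58.1 in R 4.3.3 was fitted to log2(normalized count + 1), with 1 mean per day over all 9 libraries and eBayes with a mean-variance trend. On this scale the changes of genes with few reads come out too small. Two-sided p-values were adjusted over all tested genes by Benjamini-Hochberg, at 0.05. The fits were tested on simulated data. A count of 0 was bounded at 3 reads over a day's libraries, and ratios on 1 to 3 reads carry exact 95% binomial intervals.

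Transcript length, GC content, shared 31-base words and exon overlap came from GENCODE M21 on GRCm38 by gene identifier (98.3% of tested genes had a length). No position is given in the files' own build. An overlap of Cfap157 with another gene is not reported here. Promoter windows, with their positions, came from RefSeq on GRCm38.p6.

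The 57 genes, their role groups and the other gene lists were chosen with earlier results of these data known. Values by library are given for the 6 genes with the highest mean, for the largest called changes without overlap per comparison (up to 6 each way) and for 21 genes set by role. Alternatives were another pseudocount, filter, scaling, voom, removal of length and GC trends, fewer libraries and a replicate block.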

Additional observations from a re-analysis of the deposited data

How the results depend on the processing

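The counts of axonemal genes called stayed within 1.5 times under most alternatives. With no pseudocount, on the log2 values as deposited and leaving out every gene with a 0, where 26 of the 54 genes could be tested, 23 rose from day 3 to day 5, 22 rose from day 1 to day 5, 25 differed across days and 19 differed between steps. Genes lower from day 3 to day 5 were 2 with the length and GC trend removed, with or without the replicate block, genes lower from day 1 to day 5 were 2 with no filter, and genes lower from day 1 to day 3 were 2 to 4 when 1 library was left out (4 without day 3 replicate 3). Genes with reads by day 3 were 30 if every day 3 library had to hold one. Leaving out 1 library gave 15 to 20 genes higher from day 1 to day 3, 49 to 51 from day 3 to day 5 and 50 to 51 from day 1 to day 5. Deviations of same-numbered libraries from their day means correlated at -0.311 to 0.1405, and those of libraries with different numbers at -0.150 to 0.357. Whether the numbers pair samples cannot be read from this, because day 5 libraries also differed along transcript length. With the replicate block, 18 genes were higher and 2 lower from day 1 to day 3. From day 3 to day 5, and likewise from day 1 to day 5, 50 were higher and 1 lower. Of all 17338 tested genes, this fit called 6026 higher and 6180 lower from day 1 to day 3. From day 3 to day 5 it called 5655 and 5324, and from day 1 to day 5 6151 and 6286.

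Single changes were recomputed where they were called or where both days had a mean of 20 or more, a limit set after the values were seen; 22 turned sign, 51 lost and 8 gained a call, and 2506 did neither. With the length and GC trend removed, with or without the block, these were Cfap157 (day 1 to 5, -0.021), Cfap298 (day 1 to 5, -0.35), Cfap418 (day 1 to 3, 0.0504), Cfap43 (day 3 to 5, -0.16), Cfap97 (0.19, -0.0799 and 0.11 from day 1 to 3, 3 to 5 and 1 to 5) and Tekt2 (day 1 to 3, -0.035). Cfap20 from day 3 to day 5 became 0.021 under quantile normalization and 0.18 under scaling to total reads. Cfap298 from day 1 to day 3 became 0.037 without day 1 replicate 2 and 0.081 without day 3 replicate 1, and over the fits without 1 library that change ran from -0.12 to 0.016 for Cfap20dc and from -0.12 to 0.034 for Cfap418 (positive without day 3 replicate 1 and without day 1 replicate 2). The cause of these turns was not tested.

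Scaling to total reads moved the median of all genes to -0.24 from day 1 to day 3 (5142 genes higher, 7540 lower) and to 0.38 from day 3 to day 5 (8154 higher, 3884 lower), against 6254 and 6411, and 6040 and 5624, as reported. Removing the length and GC trend moved it to -0.23 from day 3 to day 5 (4337 higher, 7376 lower). Genes with few reads on day 3 are limited by depth, and their changes rest on the pseudocount.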
